A study of Mus musculus with 2 samples.

Results

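The 7 genes described here are the ligands of the vascular endothelial growth factor family, Vegfa, Vegfb, Vegfc, Vegfd and Pgf, and a pair that acts outside the cell in the processing of VEGF-C, Ccbe1 and Adamts3. They were taken by name from the 32285 genes of the count tables, and all 7 were measured. The data are 2 libraries of single cells from the soft tissue around the Achilles tendon of mice. One library came from limbs with a burn and tenotomy model of heterotopic ossification (abnormal bone in soft tissue), collected 7 days after the tendon was cut, and the other from the opposite, uninjured limbs. The labels of both libraries name the burn and tenotomy, so the uninjured limbs are the contralateral limbs of treated mice and not limbs of untreated mice. Both libraries carry the same alleles: Hoxa11 wt/CreERT2, which puts a tamoxifen-inducible Cre under the Hoxa11 gene of the lower-limb mesenchyme; R26 wt/LSL-rtTA, a doxycycline-responsive activator behind a stop cassette that Cre removes; and TetO-Vegfd, a Vegfd transgene that this activator switches on. Each group is therefore a Vegfd transgenic group, and libraries of a control genotype were not analysed here. The sources used here do not say whether and when tamoxifen or doxycycline was given, nor how many animals went into each library; the series' design text speaks of male and female mice of 8 to 12 weeks, 5 in a group. A UMI of Vegfd from the transgene cannot be told apart from 1 of the resident gene in these tables.

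VEGF-A is the main growth factor of blood vessels and acts on VEGFR2, encoded by Kdr, and VEGFR1, encoded by Flt1, on endothelial cells. VEGF-B and placental growth factor, encoded by Pgf, bind VEGFR1. VEGF-C and VEGF-D bind VEGFR3, encoded by Flt4, which is the receptor of lymphatic endothelium, and lymphatic vessels grow toward them. Both are secreted as weakly active precursors. For VEGF-C the protease ADAMTS3 cuts the precursor while CCBE1 brings protease and ligand together. VEGF-D can be cut by other proteases, and whether this pair acts on VEGF-D was not tested here. Which cells make a ligand and which make its processing partners can therefore differ.

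The stretches just upstream of the resident genes are shown for 3 ligands whose levels the results turn on, because the Vegfd transgene runs from a TetO promoter and not from this one. They come from RefSeq windows of 250 bases before a start on build GRCm38, without the bases that lie inside the GENCODE gene, and are read 5′ to 3′ on the gene's strand with CG dinucleotides in capitals. The RefSeq window of Vegfd reaches past the GENCODE start, so only its first 106 bases are shown. Vegfd begins on the plus strand after chrX:164373272-164373377, Vegfc on the plus strand after chr8:54077282-54077531, and Vegfa on the minus strand after chr17:46032378-46032627.
Vegfd: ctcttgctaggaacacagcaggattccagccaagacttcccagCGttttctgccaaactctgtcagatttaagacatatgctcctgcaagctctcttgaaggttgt
Vegfc: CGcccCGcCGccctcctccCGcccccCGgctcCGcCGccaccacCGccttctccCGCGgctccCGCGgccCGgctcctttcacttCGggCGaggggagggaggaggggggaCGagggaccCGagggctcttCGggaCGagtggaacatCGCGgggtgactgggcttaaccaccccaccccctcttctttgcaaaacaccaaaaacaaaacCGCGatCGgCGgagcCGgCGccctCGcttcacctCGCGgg
Vegfa: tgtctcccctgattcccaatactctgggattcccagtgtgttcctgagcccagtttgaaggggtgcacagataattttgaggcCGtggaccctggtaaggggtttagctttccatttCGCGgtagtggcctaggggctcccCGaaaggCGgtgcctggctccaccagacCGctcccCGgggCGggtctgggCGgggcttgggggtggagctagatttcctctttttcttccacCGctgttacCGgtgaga
The Vegfc stretch holds 30 CG dinucleotides in 250 bases and the Vegfa stretch 11. Only 1 stands in the 106 bases shown for Vegfd, and its full window, part of it inside the GENCODE gene, holds 2. Among 32851 such mouse windows the median was 6, and 94.8% held as many as Vegfc or fewer, 66.5% as many as Vegfa and 29.0% as many as Vegfd. Adamts3 had 35 (97.4% of windows held as many or fewer) and Vegfb 26 (91.4%). The core letters of a hypoxia-response element, ACGTG or GCGTG on either strand, which themselves contain a CG, were in 38.6% of all windows and in none of the 3 stretches shown. There were 2 matches in the window of a second annotated start of Vegfa, 2 each for Adamts3 and Vegfb and 1 at a start of Pgf, where 16.73% of all windows held 2 or more.

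In the GENCODE annotation the genes lie on chromosome 17 from 46016993 to 46032369 (Vegfa, minus strand), chromosome 19 from 6982473 to 6987651 (Vegfb, minus), chromosome 8 from 54077606 to 54187096 (Vegfc, plus), chromosome X from 164373378 to 164402650 (Vegfd, plus), chromosome 12 from 85166635 to 85177790 (Pgf, minus), chromosome 5 from 89677087 to 89883334 (Adamts3, minus) and chromosome 18 (Ccbe1, minus).

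The injured library held 253050820 UMIs in 10691 barcodes and the uninjured one 101685524 UMIs in 6850 barcodes. After filters 9151 and 4700 cells were left. Their median depth was 17492 UMIs per injured cell and 15771.5 per uninjured cell. The uninjured library lost 26.4% of its barcodes to the mitochondrial filter and the injured one 7.49%. The libraries shared 19 barcode sequences, 8 of them among the cells kept. Both libraries held cells with Xist and cells with Y-linked UMIs, so each drew on animals of both sexes. Cells were clustered without the 7 genes and named from marker lists. Cells of the fibroblast, tenocyte and related lists form a mesenchymal class of 2345 injured and 1331 uninjured cells, whose 9 fibroblast markers summed to 43768 and 39349 UMIs per 1000000. Tendon was present by its own markers: the tenocyte-like cells, led by Fmod, Thbs4 and Tnmd, numbered 23 in the injured and 373 in the uninjured library. A cluster led by C1qtnf3, Cthrc1 and Postn, with 669 injured and 8 uninjured cells, also matched the tenocyte list best. Its score was 1.57 beside 5.23, and it is not counted as tenocyte-like here. There were 1131 and 1624 vascular endothelial cells, 84 and 84 lymphatic endothelial cells, 2802 and 420 mononuclear phagocytes, and 455 and 226 mural cells (pericytes and smooth muscle). Keratinocytes numbered 306 in the injured library and 0 in the uninjured one, and 975 neutrophils stood against 4.

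Levels are UMIs per 1000000 UMIs of the class (CPM), with a 95% exact interval that covers counting error only. With 1 library on each side there is no replicate check, so no difference below has a test, and variation between limbs or animals is not in these intervals. A gene is called higher or lower where the log2 ratio, injured over uninjured on CPM plus 5, is past 1 in either direction, and it counts as measured in a class where it reached 10 CPM in at least 1 library. Shares of cells with a UMI rise with depth, and depth differed between the libraries (median 44892 injured against 19182 uninjured UMIs per mesenchymal cell). Shares of a class are therefore given in cells thinned to 5000 UMIs unless said otherwise. Shares of a single cluster with a UMI of 1 gene come from unthinned cells and cannot be set beside thinned class shares. The plot of CPM by class sets all 7 genes side by side.

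**Figure D1:**
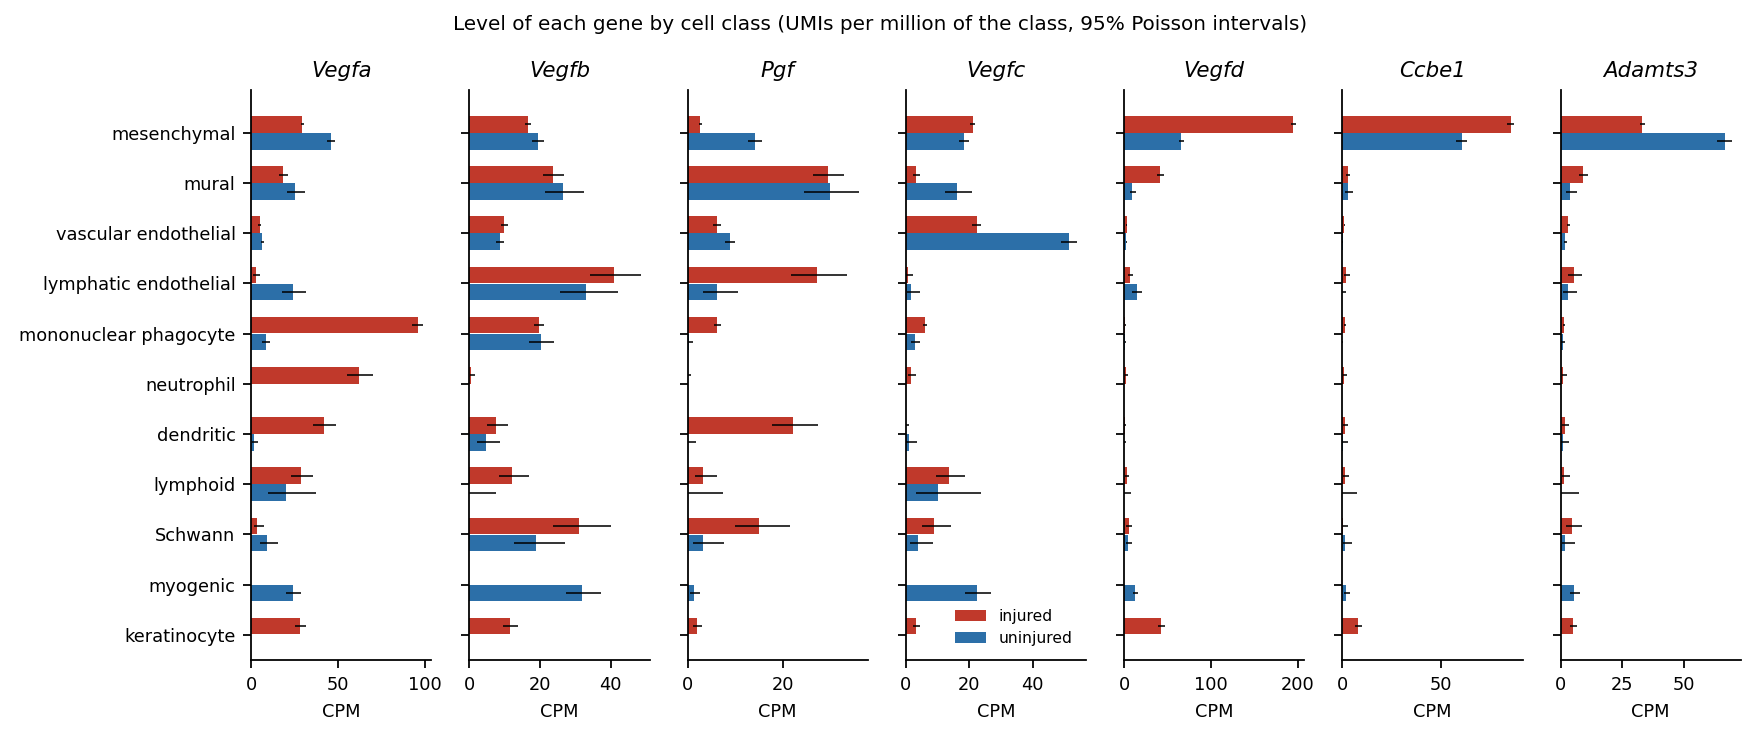
UMIs per 1000000 UMIs of the class (horizontal axis, CPM) for each of the 7 genes in cell classes of at least 50 cells, injured and uninjured library, with 95% exact Poisson intervals for counting error. Vegfd, Ccbe1 and Adamts3 stand highest in mesenchymal cells, while Vegfa is highest in injured phagocytes (95.8 CPM) and Vegfc in uninjured vascular endothelium (51.5 CPM).

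Vegfd, the lymphatic ligand that the transgene also encodes, was a mesenchymal transcript in both limbs. Mesenchymal cells gave 94.4% of all injured-library Vegfd UMIs and 88.1% of all uninjured-library ones. In these cells it stood at 195 CPM (192 to 198, 21453 UMIs) in the injured and 65.8 CPM (62.8 to 68.9, 1837 UMIs) in the uninjured limb. The injured library was 2.97-fold higher (2.83 to 3.11), a log2 ratio of 1.5, and a UMI was found in 27.7% (25.8 to 29.5) against 11.04% (9.32 to 12.9) of thinned cells. Of 7 genes measured in the class, Vegfd was the 1 called higher and Pgf the 1 called lower, where 4.27% of the 9458 genes measured were higher and 6.72% lower. The median log2 ratio of the 7 was -0.17, beside -0.05 over all genes. Beside this, the 7 smooth muscle markers summed to 1837 CPM in injured and 352 CPM in uninjured mesenchymal cells, with 4 of 7 higher. The 8 tenocyte markers stood lower for 7 of 8, and the 8 neutrophil markers summed to 104 and 1.504 CPM; the part of these differences in the Vegfd result was not tested.

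Over all cells Vegfd was 95.2 CPM injured and 23.5 CPM uninjured, called higher at log2 1.81 as the 1 of 6 members measured, beside 5.04% of all genes higher and 6.57% lower. Outside mesenchyme Vegfd was low and partly carried by single cells. Phagocytes held 1.28 CPM injured and 1.19 CPM uninjured, with a UMI in 1.82% and 1.90% of unthinned cells at median depths of 13802.5 and 14956.5. Other classes are set beside this level, and whether it is background RNA from other cells was not tested. Injured keratinocytes stood at 42.8 CPM (39.1 to 46.8) and injured mural cells at 41.6 CPM (37.8 to 45.6), whose intervals overlap. In keratinocytes 2 cells held 59.1% of the UMIs, and the rest of the class was at 17.7 CPM. In mural cells 3 cells held 72.4% of the UMIs. Vegfd was called higher in injured mural cells (41.6 against 9.59 CPM, log2 1.68), the 1 gene of 5 measured called higher there beside 6.93% of all genes, but without those 3 cells they stood at 11.6 CPM and the log2 ratio was 0.18, which ends the call. Fibroblast markers in the mural class summed to 7760 CPM injured and 3406 CPM uninjured, and their part in the result was not tested. Lymphatic endothelial cells, which receive the ligand, held 6.51 CPM injured and 14.2 CPM uninjured, within the 2-fold limit at log2 -0.74.

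Within mesenchyme Vegfd was spread over several clusters. Different clusters hold most of the class in each library: those led by Sfrp2 and Igfbp4 (cluster 3), by C1qtnf3, Cthrc1 and Postn (cluster 7) and by Cxcl5 and Timp1 (cluster 8) in the injured limb, and those led by Gsn, Clec3b and Pi16 (cluster 4), by tenocyte genes (cluster 13) and by Gsn, Dcn and Gdf10 (cluster 23) in the uninjured limb. In the injured limb Vegfd was 258 CPM (252 to 263) in cluster 7, 223 CPM in cluster 3, 191 CPM (174 to 210.5) in cluster 4 and 130 CPM (126 to 133) in cluster 8. In the uninjured limb it was 97.8 CPM (93.1 to 103) in cluster 4, 36.0 CPM in cluster 23 and 20.3 CPM in the tenocyte-like cluster 13, where 4.56% of cells had a UMI. The only large cluster that both limbs filled, cluster 4 (90 and 701 cells), was 1.96-fold higher in the injured library (1.75 to 2.18), just within the limit at log2 0.93. The smaller cluster 27, led by Apod and Gpc3, held 45 UMIs in 69 injured cells and 1 UMI in 58 uninjured cells, or 36.8 and 2.04 CPM, a ratio of 18.0 whose counting interval runs from 3.07 to 726.

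**Figure D2:**
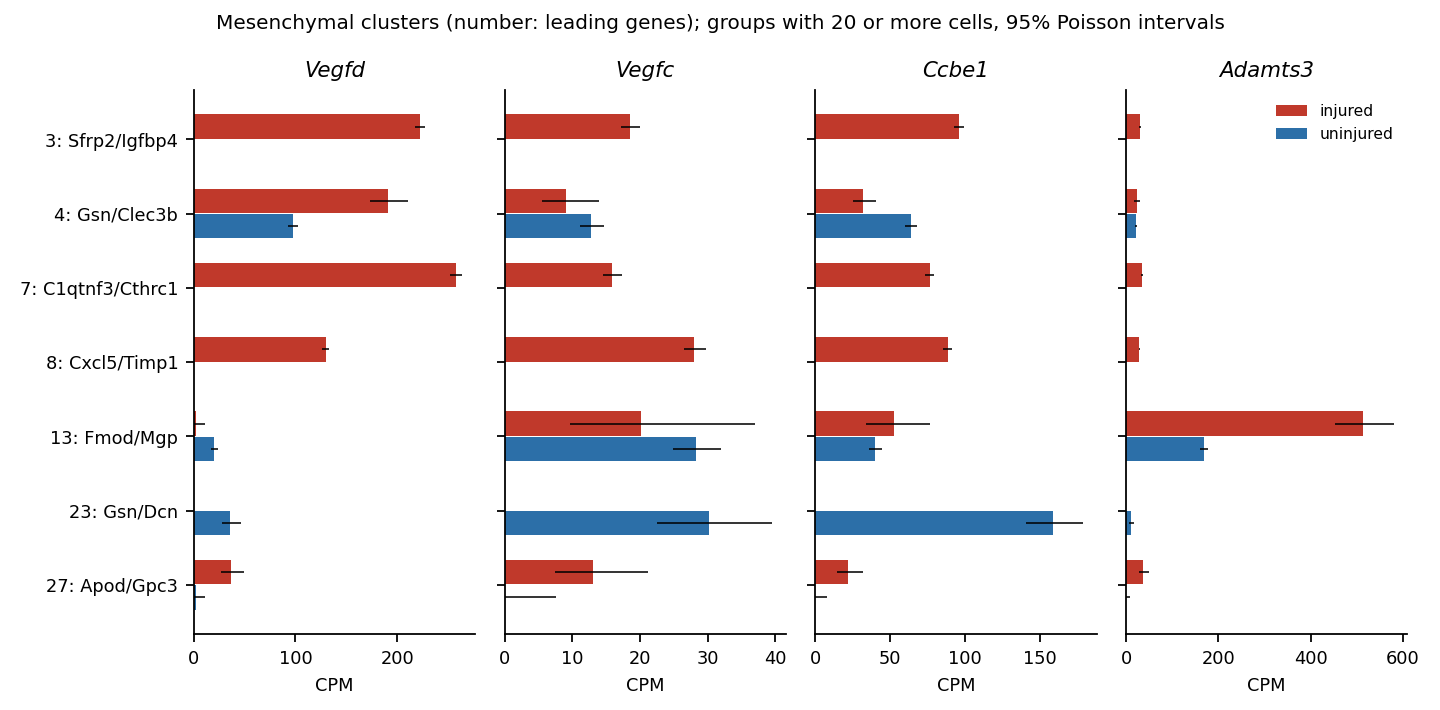
UMIs per 1000000 UMIs of the cluster (CPM) for Vegfd, Vegfc, Ccbe1 and Adamts3 in the 7 mesenchymal clusters, injured and uninjured library, where a cluster had at least 20 cells, with 95% exact Poisson intervals. Vegfd stood at 130 to 258 CPM in the 4 large injured clusters, Adamts3 was highest in the tenocyte-like cluster 13, and Ccbe1 in the uninjured cells of cluster 23 (159 CPM).

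Vegfd was very unequal from cell to cell. The top 5% of mesenchymal cells held 61.7% of the class's Vegfd UMIs in the injured and 76.5% in the uninjured limb. The same share for Ccbe1 was 36.5% and 47.0%, for Vegfc 41.5% and 48.0%, for Vegfa 37.5% and 40.1%, and for Adamts3 48.1% and 58.8%. The median injured cell had 1 Vegfd UMI, the 95th percentile 46 and the highest cell 414; uninjured cells had a median of 0, a 95th percentile of 4 and a highest value of 323. Cells in which Vegfd made up at least 10 of every 10000 UMIs numbered 113 of 2345 in the injured limb (4.82%, 3.99 to 5.77) and 9 of 1331 in the uninjured limb (0.676%, 0.310 to 1.28), and they held 58.0% and 51.7% of the class's Vegfd UMIs. In the injured limb 50 of them were in cluster 7, 31 in cluster 3, 28 in cluster 8 and 4 in cluster 4; in the uninjured limb 8 were in cluster 4 and 1 in cluster 13. The cells below that line stood at 85.8 CPM in the injured and 32.03 CPM in the uninjured limb, a log2 ratio of 1.29.

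**Figure D3:**
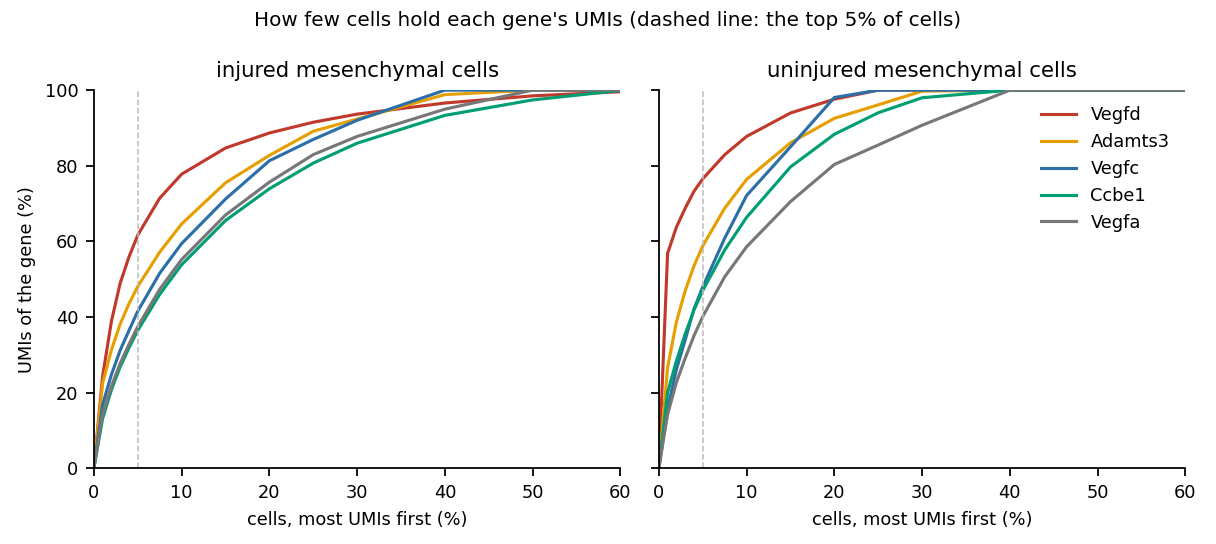
Cumulative share of a gene's mesenchymal UMIs (vertical axis, %) against the share of mesenchymal cells ranked from the highest count down (horizontal axis, %), for the injured and uninjured library, with a dashed line at the top 5% of cells. The Vegfd curve rises most steeply of the genes drawn, reaching 61.7% (injured) and 76.5% (uninjured) at that line.

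The 113 Vegfd-high injured cells were not deeper than the rest of the class, with a median of 44135 UMIs against 44957.5. Hoxa11, the gene that carries the CreERT2 allele, was 16.6 CPM (13.2 to 20.6) in them and 14.5 CPM (13.8 to 15.2) in the other 2232 cells, with overlapping intervals. The 9 uninjured high cells held 9 Hoxa11 UMIs, 37.7 CPM (17.2 to 71.5), against 14.95 CPM (13.5 to 16.5) in the other 1322. In the injured cells Ccbe1 stood at 97.6 CPM (89.1 to 107) against 84.7 CPM (83.0 to 86.5), and Vegfc was 21.0 CPM in both. Adamts3 was 24.8 CPM (20.7 to 29.6) against 33.3 CPM (32.2 to 34.5) in this group, which was itself chosen on Vegfd. Over the whole class Hoxa11 differed little between limbs, at 14.6 CPM injured and 15.2 CPM uninjured. Of 6 Hox genes of the limb, Hoxa11 among them, 5 were measured and 0 passed the 2-fold limit, with a median log2 ratio of -0.56. Of all genes 4.27% were higher and 6.72% lower in mesenchymal cells. Split by sex markers, mesenchymal the cells in which Xist was found without a Y-linked gene held 281 CPM injured and 62.0 CPM uninjured Vegfd, a ratio of 4.52, and cells with Y-linked UMIs and no Xist held 123 and 44.4 CPM, a ratio of 2.76.

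Vegfc, the main lymphatic ligand, had a pair of sources whose weight differed between the limbs. Vascular endothelium gave 61.4% of the Vegfc UMIs of the uninjured library and 23.8% of those of the injured one, while mesenchymal cells gave 19.98% and 63.4%. In vascular endothelium Vegfc was 22.3 CPM (20.8 to 23.8, 866 UMIs) injured and 51.5 CPM (49.0 to 54.1, 1577 UMIs) uninjured, 2.31-fold lower in the injured library (2.13 to 2.52) at log2 -1.05. It was the 1 of the 7 genes measured there and was called lower, beside 4.36% of all genes called lower and 4.14% higher. The value lies close to the limit, and 5 of 12 other settings put it inside. A UMI was found in 9.05% (7.39 to 10.9) of injured and 13.8% (12.1 to 15.7) of uninjured thinned cells. Beside it, the 7 pericyte markers summed to 82.3 CPM injured and 387 CPM uninjured in this class, and 6 erythroid markers to 408 and 3249 CPM; their part in the result was not tested.

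The endothelial clusters did not move alike in Vegfc. The arterial-type cluster 19, led by Cldn5, Stmn2 and Sema3g, held the highest level in both limbs, 239 CPM (215 to 265) injured and 265 CPM (248 to 283) uninjured, with a UMI in 73.8% and 77.1% of cells and a ratio of 0.901 (0.796 to 1.02). The venous-type cluster 12, led by Selp, Vwf and Ackr1, stood at 20.5 CPM injured and 80.7 CPM uninjured, a ratio of 0.254 (0.207 to 0.311). Cluster 6, led by Plvap and Aplnr, stood at 11.3 against 40.5 CPM, a ratio of 0.279 (0.227 to 0.342). The capillary-type cluster 0, led by Timp4 and Aqp1, was at 16.3 CPM in both. The cycling cluster 20 stood at 10.6 CPM injured and 6.17 CPM uninjured, a ratio of 1.72 (1.00 to 3.14). Clusters 12 and 6 were thus called lower, at log2 -1.75 and -1.48, and clusters 0, 19 and 20 were not. The limbs filled these clusters unequally: cluster 0 held 99 of 1131 injured and 1071 of 1624 uninjured cells, and cluster 19, with 61 and 179 cells, gave 368 of 866 and 876 of 1577 Vegfc UMIs.

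**Figure D4:**
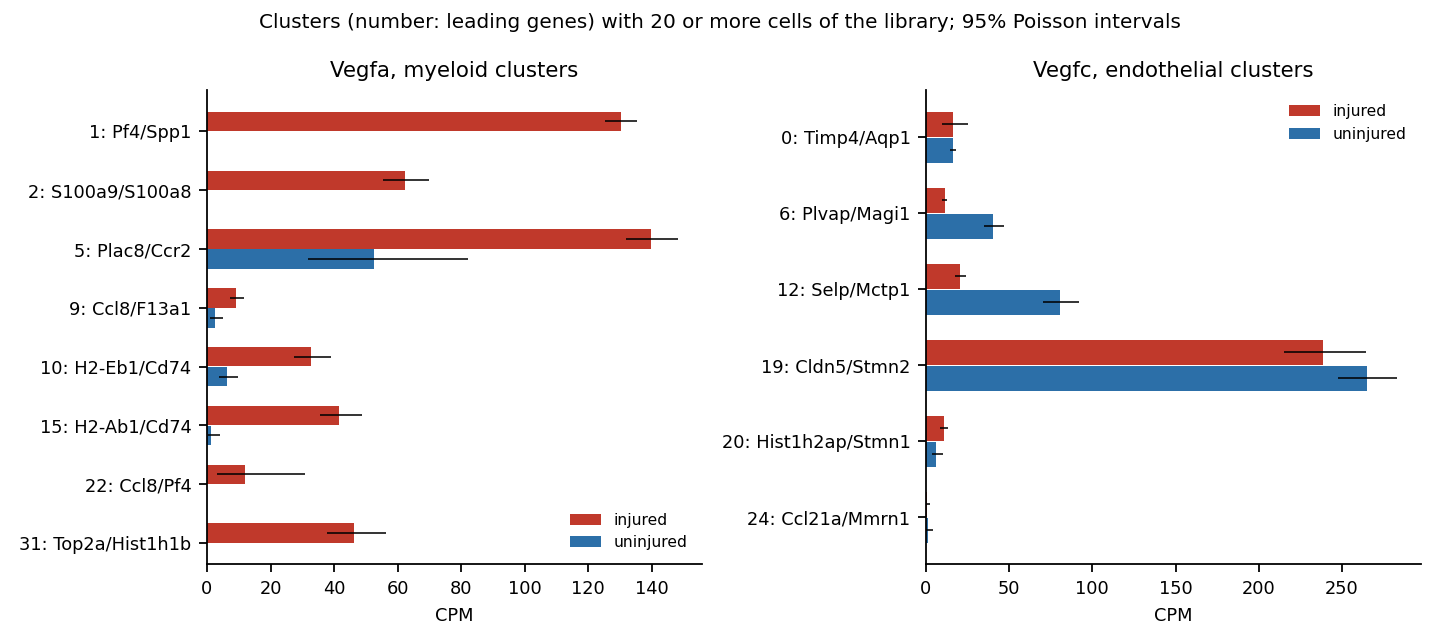
UMIs per 1000000 UMIs of the cluster (CPM) for Vegfa in phagocyte clusters and Vegfc in endothelial clusters, injured and uninjured library, where a cluster had at least 20 cells, with 95% exact Poisson intervals. Vegfc in the arterial-type cluster 19 was 239 and 265 CPM, while clusters 6 and 12 were lower in the injured library; Vegfa reached 130 to 140 CPM in the injured clusters 1 and 5.

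In mesenchymal cells Vegfc was 21.0 CPM (20.2 to 21.9, 2309 UMIs) injured and 18.4 CPM (16.8 to 20.03, 513 UMIs) uninjured, a ratio of 1.14 (1.04 to 1.26), and 8.61% and 8.05% of thinned cells had a UMI. It was highest in cluster 23 (30.2 CPM) and the tenocyte-like cluster 13 (28.2 CPM) of the uninjured limb and in cluster 8 (28.0 CPM) of the injured limb. The pooled ratio joins values that differ by sex markers, 0.824 in cells with Xist and 2.01 in cells with Y-linked UMIs. Mural cells held 3.08 CPM injured and 16.1 CPM uninjured, and Vegfc was the 1 gene of 5 measured that was called lower there, at log2 -1.38, beside 6.39% of all genes; the log2 ratio was -0.81 with cells of up to 20% mitochondrial UMIs let in, -0.97 with classes set cell by cell and -0.69 among cells with Y-linked UMIs, each of which ends the call. Lymphatic endothelium, which carries the receptor, had 0.62 and 1.53 CPM. Injured dendritic cells had no UMI in 253 cells, which allows up to 0.787 CPM.

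Ccbe1, the cofactor that presents VEGF-C to its protease, was almost wholly mesenchymal, which held 97.6% of its UMIs in the injured library and 98.5% in the uninjured one. Its level was 85.3 CPM (83.6 to 87.0, 9380 UMIs) injured and 60.4 CPM (57.6 to 63.4, 1688 UMIs) uninjured, a ratio of 1.41 (1.34 to 1.49), within the limit at log2 0.46. A UMI was found in 25.1% (23.3 to 27.0) and 20.1% (17.9 to 22.5) of thinned cells. In vascular endothelium it was 0.823 and 0.0653 CPM, and in mural cells 2.71 and 2.82 CPM. Lymphatic endothelium held 1.86 CPM injured and no UMI uninjured, which allows up to 1.53 CPM. So the endothelial cells in which Vegfc was found held next to no Ccbe1. By cluster it was highest in the uninjured cells of cluster 23, at 159 CPM (141 to 179). The injured clusters 3, 8 and 7 held 96.0, 88.4 and 76.4 CPM. Cluster 4 went the other way from the class, at 32.1 CPM (25.1 to 40.5) injured and 63.9 CPM (60.05 to 67.9) uninjured, a ratio of 0.503 (0.390 to 0.640), which is inside the limit at log2 -0.89.

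Adamts3, the protease that cuts the VEGF-C precursor, was also mesenchymal, with 89.7% and 92.2% of its UMIs in that class. It was 32.9 CPM (31.9 to 34.0, 3623 UMIs) injured and 66.3 CPM (63.3 to 69.4, 1851 UMIs) uninjured, 2.01-fold lower in the injured library (1.90 to 2.13) but within the limit on the scale with 5 CPM added, at log2 -0.91. A UMI was found in 12.2% (10.9 to 13.6) and 15.5% (13.5 to 17.7) of thinned cells. The tenocyte-like cluster 13 stood highest in both limbs, with 513 CPM (452 to 580) in 23 injured cells and 169 CPM (161 to 178) in 373 uninjured cells, where 69.7% of cells had a UMI. It gave 255 of the class's 3623 Adamts3 UMIs in the injured limb and 1470 of 1851 in the uninjured limb. In the injured class as a whole 3 cells held 6.49% of the UMIs, the highest of them 148. The injured clusters 3, 4, 7 and 8 lay between 22.6 and 34.1 CPM. Cluster 4 held 22.6 CPM injured and 21.4 CPM uninjured, a ratio of 1.06. Cluster 27 held 37.6 CPM in 69 injured cells and no UMI in 58 uninjured cells, which allows up to 6.13 CPM; it was called higher. The 8 tenocyte markers summed to 1575 CPM in injured and 5263 CPM in uninjured mesenchymal cells, and their part in the class's Adamts3 difference was not tested. Outside mesenchyme it was 9.23 and 3.95 CPM in mural cells, 5.27 and 3.05 CPM in lymphatic endothelium and 3.14 and 1.83 CPM in vascular endothelium, and 22 uninjured perineurial cells stood at 41.6 CPM.

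Over the injured mesenchymal class, Vegfd was found in the same cells as Ccbe1 about as often as the separate shares would give. It met Adamts3 somewhat less often than the product of their shares, though the counting interval held that product. In injured cells thinned to 5000 UMIs, 155 of 2253 (6.88%, 5.87 to 8.00) held both Vegfd and Ccbe1, where the product of the shares is 6.95%. Vegfd and Adamts3 met in 60 cells (2.66%, 2.04 to 3.41), beside a product of 3.38%, and all 3 genes in 16 cells (0.710%, 0.406 to 1.15), beside 0.798%. In cluster 3 alone Vegfd and Adamts3 met in 18 of 812 cells (2.22%, 1.32 to 3.48), below the product of 3.77%. A Ccbe1 UMI was in 24.9% of injured cells with Vegfd and 25.2% of those without. An Adamts3 UMI was in 9.63% of injured cells with Vegfd and 13.2% of those without. At 2000 UMIs per cell Vegfd and Adamts3 met in 11 cells (0.477%, 0.238 to 0.852), beside a product of 0.836%. In cluster 3 they met at that depth in 4 of 829 cells (0.483%, 0.132 to 1.23), an interval that holds the product of 0.917%. Clusters 7 and 8 had 3 such cells each, beside 4.09 and 5.24 from the products, and cluster 4 had 1, beside 0.345. At full depth, where shares are larger, 950 of the 2345 injured cells (40.5%) held Vegfd and Ccbe1, and 436 (18.6%) held all 3.

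Over the uninjured class Vegfd met Adamts3 less often than the product of their shares, and Vegfc met both partners more often. Vegfd and Ccbe1 were together in 19 of 1205 thinned cells (1.58%, 0.952 to 2.45), an interval that holds the product of 2.22%. Vegfd and Adamts3 met in 8 cells (0.664%, 0.287 to 1.30), beside a product of 1.71%. Only 6.02% of cells with Vegfd had an Adamts3 UMI, against 16.7% of the rest, and the tenocyte-like cluster held both the highest Adamts3 and the lowest Vegfd of the 3 large uninjured clusters. Vegfc met Ccbe1 in 32 cells (2.66%, 1.82 to 3.73), beside 1.62%, Adamts3 in 26 cells (2.16%, 1.41 to 3.15), beside 1.25%, and both in 9 cells (0.747%, 0.342 to 1.41), beside 0.247%. A Ccbe1 UMI was in 32.99% of uninjured cells with Vegfc and 18.9% of those without. These values pool clusters that differ in level. Within the tenocyte-like cluster Vegfc and Adamts3 met in 22 of 355 thinned cells (6.20%, 3.92 to 9.23), an interval that holds the product of 5.91%. Vegfd and Adamts3 met there in 2 cells, beside 3.499 from the product, and in cluster 4 in 5 cells, beside 6.79. At 2000 UMIs per cell the uninjured Vegfc pairs had intervals that hold the product: 0.268 to 1.22% beside 0.382% with Ccbe1, and 0.171 to 1.01% beside 0.262% with Adamts3. In the tenocyte-like cluster at full depth, 100 of 373 uninjured cells (26.8%) held Vegfc and Adamts3, and 54 (14.5%) held Vegfc and Ccbe1. Vascular endothelium differed: of the 388 uninjured cells with Vegfc at full depth 0 held Ccbe1 and 17 held Adamts3, and in the injured limb 6 of 1131 cells held Vegfc with Ccbe1.

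Vegfa, the blood vessel growth factor, stood highest per UMI in injured mononuclear phagocytes among classes of at least 50 cells. In mononuclear phagocytes it was 95.8 CPM (92.9 to 98.8, 4057 UMIs) injured and 8.36 CPM (6.32 to 10.9, 56 UMIs) uninjured, 11.5-fold higher (8.80 to 15.2) at log2 2.91. A UMI was found in 24.8% (23.1 to 26.5) of injured and 2.51% (1.21 to 4.57) of uninjured thinned cells. It was the 1 called higher of 2 members measured in the class, beside 3.07% of all genes higher and 4.63% lower. Phagocytes gave 46.8% of the injured library's Vegfa UMIs and 2.93% of the uninjured library's. Beside it, the 8 neutrophil markers summed to 466 CPM injured and 119 CPM uninjured in this class, with Ly6g at 0, and 5 of 7 monocyte markers were higher; their part in the result was not tested. Different clusters hold most of the class in each limb: those led by Pf4 and Spp1 (cluster 1) and by Plac8 and Ccr2 (cluster 5) had 1134 and 712 of the 2802 injured cells but 15 and 24 of the 420 uninjured ones. In the injured limb they held 130 and 140 CPM, and 24 uninjured cells of cluster 5 held 52.6 CPM (31.7 to 82.1). Cluster 10, led by H2-Eb1 and Cd74 and filled by both limbs, was 32.8 against 6.39 CPM, a ratio of 5.13 (3.19 to 8.68). The cluster of resident type led by Mrc1, Cd163 and F13a1 (cluster 9) was at 9.22 and 2.52 CPM, a ratio of 3.65 (1.68 to 9.41) that is inside the limit at log2 0.92.

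In the other classes Vegfa differed in both directions. Injured neutrophils held 62.3 CPM (55.4 to 69.9), with a UMI in 17.6% of unthinned cells, next below phagocytes among classes of at least 50 cells. Dendritic cells held 41.7 CPM injured (159 UMIs) and 1.42 CPM uninjured (3 UMIs), called higher at log2 2.86 with a ratio interval of 9.89 to 144. With classes set cell by cell that log2 ratio was 1.03. In this class 5.79% of all genes were higher and 6.08% lower, and the 8 neutrophil markers summed to 289 and 6.61 CPM. Injured mesenchymal cells, lymphoid cells and keratinocytes then followed at 29.5, 28.7 and 28.3 CPM with overlapping intervals. The 2345 injured mesenchymal cells still gave 3243 of the injured library's 8674 Vegfa UMIs, against 4057 from 2802 phagocytes. CPM is per UMI of the class, and the median depths of these classes were 44892 and 13802.5 UMIs per cell. Uninjured mesenchymal cells held 45.9 CPM (43.4 to 48.5), so that class was lower in the injured limb, at a ratio of 0.642 (0.602 to 0.686), within the limit at log2 -0.56, and it gave 67.2% of the uninjured library's Vegfa UMIs. Vascular endothelium was low, at 4.89 and 6.27 CPM, apart from the arterial-type cluster 19 with 47.4 against 19.1 CPM, a ratio of 2.49 (1.75 to 3.54). Lymphatic endothelium held 2.79 CPM injured (9 UMIs) and 23.9 CPM uninjured (47 UMIs), called lower at log2 -1.89 as the 1 of 4 members measured there, beside 10.3% of all genes lower and 10.6% higher. With classes set cell by cell that ratio was -0.64, which ends the call. The top 5 of 84 uninjured lymphatic cells held 59.6% of the 47 UMIs.

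Pgf, the placental growth factor, differed between the limbs in opposite directions by class. In mesenchymal cells it was 2.66 CPM injured (293 UMIs) and 14.2 CPM uninjured (396 UMIs), 5.32-fold lower (4.56 to 6.21) at log2 -1.32. Cluster 4, which both limbs filled, held 16.7 and 21.5 CPM, a ratio of 0.779 (0.539 to 1.09). Mesenchymal cells gave 20.7% of the injured and 46.4% of the uninjured Pgf UMIs, and vascular endothelium, at 6.17 and 8.85 CPM, gave 16.9% and 31.7%. Of the 1417 injured UMIs mural cells gave 317, the most of any class, and phagocytes gave 265. Phagocytes held 6.26 CPM injured and 0.299 CPM uninjured (2 UMIs), a ratio of 20.9 (5.74 to 174). They stayed under the 10 CPM needed to count as measured. In mural cells the pooled level was even, at 29.6 and 29.9 CPM. Cluster 25, led by Myh11, held 90.0 CPM (73.1 to 110) injured in 48 cells and 49.8 CPM (40.6 to 60.5) uninjured, and cluster 11, led by Rgs5 and Acta2, held 22.7 and 4.30 CPM, a ratio of 5.28 (2.23 to 16.4). In lymphatic endothelium Pgf was 27.3 CPM (21.9 to 33.6) injured and 6.10 CPM uninjured, called higher at log2 1.54 with a ratio of 4.47 (2.43 to 8.98). The top 5 of 84 injured cells held 63.6% of its 88 UMIs there, and the highest cell held 25. Beside both lymphatic results, the 9 lymphatic markers summed to 6535 CPM injured and 16969 CPM uninjured, 9 fibroblast markers to 1008 and 140 CPM and 6 erythroid markers to 2058 and 79.8 CPM; their part was not tested. Injured dendritic cells held 22.3 CPM (85 UMIs) against none. This is 15.7-fold higher against a floor of 3 UMIs, and the exact interval of the ratio starts at 12.5. The log2 ratio of 2.45 became 0.97 with classes set cell by cell. The top 13 of 253 injured dendritic cells held 75.3% of those UMIs. Schwann cells held 14.99 and 3.26 CPM, called higher at log2 1.28 beside 11.4% of all genes called higher and 9.24% lower, and the log2 ratio was inside the limit at 5% mitochondrial UMIs (0.20) and with classes set cell by cell (0.86). The top 5 of 100 injured Schwann cells held 86.2% of the 29 UMIs, and the highest cell held 12.

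Vegfb, a VEGFR1 ligand of oxidative tissues, differed little over all cells. There it was 16.02 CPM injured and 15.93 CPM uninjured, a ratio of 1.00 (0.946 to 1.07). Lymphatic endothelium held 40.9 and 33.1 CPM, mural cells 23.6 and 26.5 CPM, phagocytes 19.6 and 20.2 CPM, mesenchymal cells 16.6 and 19.3 CPM and vascular endothelium 9.87 and 8.59 CPM, each within the limit. Schwann cells, at 31.0 and 18.9 CPM, were within it too at log2 0.59. Injured neutrophils held 2 UMIs in 975 cells. The call in lymphoid cells, at 12.0 CPM against no UMI in 52 uninjured cells, rests on a bound of at least 1.97-fold, beside 11.8% of all genes called higher there and 5.65% lower. The 26 uninjured cells of the muscle fibre cluster stood at 190 CPM (141 to 250).

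**Figure D5:**
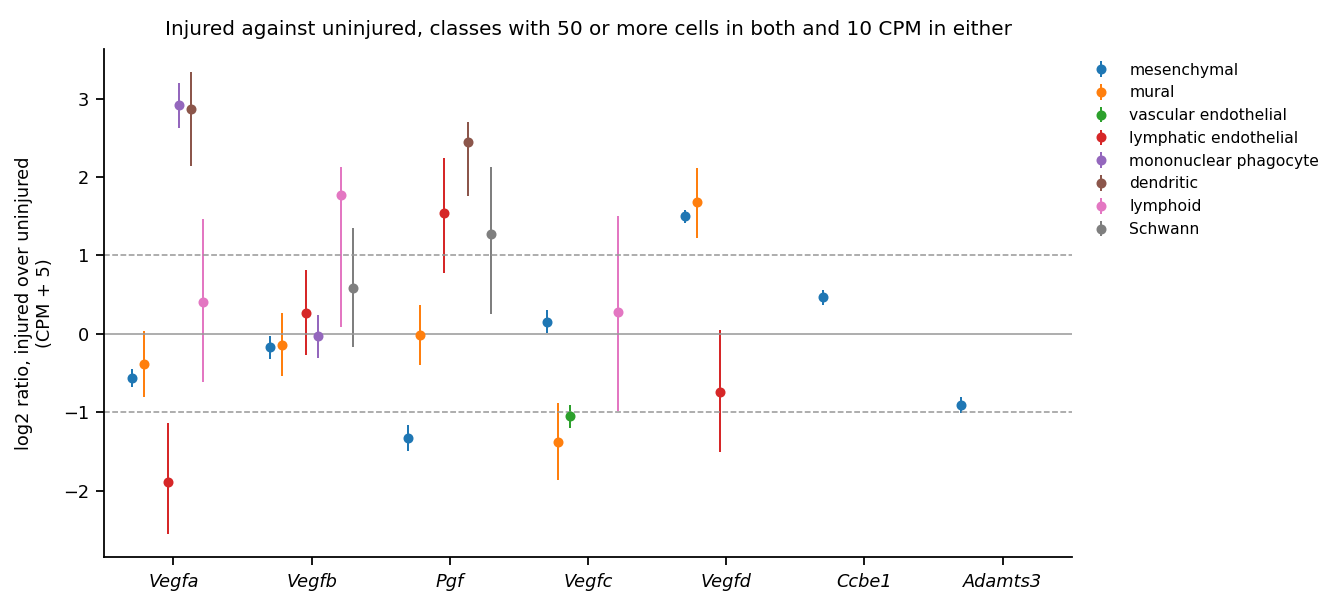
Log2 ratio of injured over uninjured level (CPM plus 5) for each of the 7 genes in each class with at least 50 cells in both libraries, with bars for the 95% counting interval and dashed lines at -1 and 1. Vegfa in phagocytes (2.91) and Vegfd in mesenchymal cells (1.5) lie above the upper line, Pgf in mesenchymal cells (-1.32) and Vegfc in vascular endothelium (-1.05) below the lower one.

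Of the receptors these ligands bind, some were lower in the injured limb in several classes. In vascular endothelium 5 receptor genes were measured, of which 0 were higher and 2 lower (4.36% of all genes were lower), with a median log2 ratio of -0.66 beside 0.02 over all genes. These were Flt1, the receptor of VEGF-A, VEGF-B and placental growth factor, at 929 and 2085 CPM, and Nrp1, the co-receptor of VEGF-A, at 304 and 798 CPM. Kdr was 430 and 683 CPM, Flt4 28.7 and 46.6 CPM and Nrp2, the co-receptor of VEGF-C, 326 and 329 CPM. These values pool endothelial clusters that the limbs filled unequally. The capillary-type cluster 0, with Flt1 among its leading genes, held 99 injured and 1071 uninjured cells. The part of this make-up in the receptor differences was not tested. In lymphatic endothelium 2 of 5 were lower (10.3% of all genes were), Flt1 (26.7 and 84.4 CPM) and Nrp1 (9.30 and 35.1 CPM), in a class whose lymphatic markers were lower too, as given above. The lymphatic receptor Flt4 was 441 and 603 CPM there and Nrp2 731 and 554 CPM, both within the limit. The list was also lower for 2 of 4 measured genes in phagocytes (4.63% of all genes were lower) and 2 of 4 in dendritic cells (6.08%). It was lower for 3 of 4 in lymphoid cells (5.65%) and 1 of 4 in mural cells (6.39%). In Schwann cells 2 of 4 were lower (9.24%) and 1 higher (11.4%). The 9 vascular endothelial markers summed lower in these injured classes too. They stood at 122 against 210 CPM in phagocytes, 99.9 against 214 in dendritic cells and 518 against 813 in lymphoid cells. In mural cells they stood at 444 against 578 CPM, and in Schwann cells at 360 against 713. Their part in the receptor counts was not tested.

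Other proteases that can cut the VEGF-C and VEGF-D precursors did not pass the limit in mesenchymal cells, where 8 were measured and 0 called. In that class 4.27% of all genes were higher and 6.72% lower. Adamts2, a relative of Adamts3, was 332 CPM injured and 350 CPM uninjured, and Adamts14 13.3 and 11.03 CPM. The proprotein convertases Furin and Pcsk5 were 79.8 against 46.8 and 508 against 351 CPM. Cathepsin D, encoded by Ctsd, which can cut VEGF-C and VEGF-D, was higher in injured phagocytes (1426 and 476 CPM, log2 1.57) and in injured lymphatic endothelium (340 and 137 CPM, log2 1.28). Plau, the urokinase that activates plasmin, was also higher in lymphatic endothelium (142 and 19.8 CPM, log2 2.56), where these 2 of 6 measured were higher and 0 lower, beside 10.6% of all genes higher. The list had 1 of 4 higher in phagocytes (beside 3.07% of all genes) and 2 of 8 higher in mural cells (6.93%). In Schwann cells 3 of 7 were higher (11.4%) and 1 lower (9.24%), and in dendritic cells 2 of 4 were lower (6.08%). None of 6 passed the limit in vascular endothelium (4.14% higher, 4.36% lower) and none of 4 in lymphoid cells (11.8% and 5.65%). Of the hypoxia genes, whose factors act on Vegfa, 8 were measured in phagocytes, with 2 higher (Hif1a at 267 and 90.2 CPM, Pgk1 at 157 and 57.7 CPM), 1 lower (Epas1 at 7.63 and 32.9 CPM) and a median log2 ratio of 0.73 beside -0.03 over all genes. Of all genes 3.07% were higher and 4.63% lower in phagocytes. In mesenchymal cells Hif1a stood at 477 and 87.2 CPM. It was the 1 called of 9, beside 4.27% of all genes called higher. In dendritic cells 9 were measured, with 1 higher (5.79% of all genes) and 1 lower (6.08%). The part of these genes in the Vegfa levels was not tested.

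Over the 19 sums of a class within a library, the patterns most like each gene's were described by Pearson's r on log2 levels, with no test since the points share 2 libraries. Ccbe1 was most like Clec11a (r = 0.985) and Cpz (0.982), Vegfd like Srpx2 (0.952) and Mfap2 (0.947), and Adamts3 like Ndrg4 (0.947) and Adgrd1 (0.947). Among the members, Ccbe1 and Adamts3 had r = 0.923, Vegfd and Adamts3 0.866 and Vegfd and Ccbe1 0.858. Vegfc stood apart from them, at 0.320 with Adamts3, 0.303 with Ccbe1 and 0.224 with Vegfd, and was most like Mpped2 (0.779) and Col15a1 (0.773). Vegfa had no close match, with Ptgs2 the nearest at 0.687.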

How the data were processed

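Single cells from injured and from uninjured limbs of Vegfd transgenic mice were profiled by droplet 3′ sequencing, 1 library each. The deposited values are raw UMI counts per gene and cell, made by the authors with Cell Ranger 5.0.1 on mm10, per the submitters' processing notes. Cells needed 500 genes or more, with no more than 10% of UMIs mitochondrial, and those with a Scrublet score above 0.2 were removed as doublets (215 of 9366 and 60 of 4760). With scanpy 1.11.5 (scikit-learn 1.9.0, igraph 0.11.9), 2000 variable genes without the members gave 30 components, 15 neighbours and 38 Leiden clusters at resolution 0.8. Clusters were named from 22 marker lists where at least 3 markers were found in 10% of cells or more, and stayed unnamed where another class's list reached 0.5 of the best score, a limit set after the clusters were seen. Members, gene lists and markers were chosen with earlier results of these data known. The genes named are the 7 members, genes of the pathway lists and, for a member, genes from the 3 with the highest Pearson r of log2(CPM + 5), taken over genes that reached 20 CPM in some sum. UMIs were summed by class and library and turned into CPM; intervals are exact Poisson, Clopper-Pearson or conditional binomial at 95% (scipy 1.17.1, numpy 2.4.6), and the method was tested on simulated data. Classes with at least 50 cells in both libraries were compared, 8 in all. Alternatives covered the pseudocount, scaling, mitochondrial limit, doublets, clustering, naming cell by cell, depth of thinning and sex markers. Depth was 253050820 and 101685524 UMIs, so a count of 0 allows 3 UMIs; intervals cover counting error only. Levels are per UMI of a class, so fewer cells and less RNA per cell cannot be told apart over a whole library. Transgene-specific reads and protein levels were not analysed here.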

Additional observations from a re-analysis of the deposited data

Results flagged for a closer look

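Vegfc in mesenchymal cells differed in direction between cells of the 2 sexes. Among cells that held Xist but nothing Y-linked, the injured limb stood at 18.6 CPM (779 UMIs) and the uninjured limb at 22.6 CPM (362 UMIs), a ratio of 0.824 (0.726 to 0.935). In cells with Y-linked UMIs and no Xist the values were 23.9 CPM (1064 UMIs) and 11.9 CPM (116 UMIs), a ratio of 2.01 (1.66 to 2.46). The pooled ratio of 1.14 lies between them. The difference between the sexes was not tested, since each sex in each limb is 1 pool of cells, and the split leaves out cells with neither or both kinds of UMI.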

How the results depend on the processing

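Values here are log2 ratios of injured over uninjured. No paired analysis was possible because each group has 1 library, and for that reason no replicate could be left out. Of the 120 alternatives of the main results 90 stayed within the counting interval of the main value and 30 moved, and none reversed a call. Among alternatives of the other results, which include shares at other depths, 207 stayed within their limits and 103 moved. Vegfd in mesenchymal cells passed the 2-fold limit in 13 of 13 settings, with 1.61 under median-of-ratios scaling, 1.30 at 5% mitochondrial UMIs, 2.09 in cells with Xist, 1.37 in cells with Y-linked UMIs and 1.29 without the Vegfd-high cells, a setting chosen after seeing the data. The median mesenchymal gene with at least 50 UMIs stood at -0.12, the shift that median-of-ratios scaling removes. Vegfa in phagocytes was 3.37 with a pseudocount of 1 and 3.48 in Y cells, and in mesenchymal cells -0.75 at 5% mitochondrial UMIs and -0.70 in Xist cells. Vegfc in mesenchymal cells was -0.23 in Xist and 0.78 in Y cells. In vascular endothelium Vegfc was -2.57 at 5% mitochondrial UMIs, -1.54 with each library clustered alone and -1.54 in Y cells, but -0.92 with doublets kept, -0.91 and -0.92 at resolutions 0.4 and 1.6, -0.91 with the members among the clustering genes and -0.67 in Xist cells, each of which ends the call. Pgf in mesenchymal cells was -2.05 with a pseudocount of 1, -1.14 in Xist and -1.57 in Y cells. In mural cells Pgf was 0.89 with each library alone and 0.41 and 0.72 at resolutions 0.4 and 1.6. Ccbe1 in mesenchymal cells was 0.58 under median-of-ratios, 0.31 at 5% mitochondrial UMIs, 0.31 with classes set cell by cell, 0.27 in Xist and 0.88 in Y cells. Adamts3 was -0.81, -0.70, -0.60 and -1.13 under median-of-ratios, 5% mitochondrial UMIs, Xist and Y cells; the last passes the limit. The cause of these shifts was not tested. Classes under 50 cells in a setting gave no value. Shares depend on depth: the Vegfd share of injured mesenchymal cells was 16.9% at 2000 UMIs, 27.7% at 5000 and 63.8% unthinned.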

Other observations

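A few small clusters of the injured limb held a ligand at a level far from their class, and they are given as values chosen after they were seen. The 53 cells of a cycling, osteoclast-like cluster led by Top2a and Acp5 held 67.4 CPM of Vegfc (56.8 to 79.3, 144 UMIs), with a UMI in 32.1% of cells, and 39.8 CPM of Pgf, while the phagocyte class that contains them was at 5.95 and 6.26 CPM. The 74 cells of a cluster led by Ccl5, Gzma and Nkg7, genes of natural killer cells, held 52.5 CPM of Vegfc (36.6 to 73.1), with a UMI in 24.3% of cells, and 67.5 CPM of Vegfa. T cells (cluster 21) had no Vegfc UMI in 151 injured cells, which allows up to 2.09 CPM. The 33 injured mast cells held 118 CPM of Vegfa (76.8 to 172), with a UMI in 42.4% of cells.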
